A study of Homo sapiens with 4 samples.

Results

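The genes described here encode the upper part of the RAS-RAF-MEK cascade in T24 cells: the small GTPases HRAS, NRAS and RALA, the protein kinases ARAF and BRAF of the RAF family, and MAP2K1 and MAP2K2, the MEK kinases. They were taken by name from the deposited expression table, and all 7 of 7 names were found among its 47432 genes. T24 is a long-established bladder carcinoma line, and it carries an activating mutation in HRAS. The control group is 2 libraries of T24 cells that the labels call untreated, for which the study's methods give DMSO as the vehicle, and the ISO group is 2 libraries of T24 cells given isorhapontigenin (ISO), a stilbene related to resveratrol, at 20 µM for 24 h. Both groups are the same line, for which the labels name no transgene or deletion, and the libraries of each group carry the letters a and b. Whether replicate libraries were separate cultures is not given in the sources used here, so the p-values reflect library-to-library spread alone, and this could be purely technical. Where 2 values are given for a group, library a comes first. Bulk RNA cannot tell fewer cells that express a gene from less RNA per cell.

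RAS proteins are molecular switches. Exchange factors load them with GTP and GTPase-activating proteins switch them off. The loaded forms recruit RAF kinases to the membrane, RAF phosphorylates MEK1 and MEK2 (the products of MAP2K1 and MAP2K2), and MEK phosphorylates ERK. A second branch runs from RAS through exchange factors of the RALGDS family to the RAL GTPases, which act on the exocyst complex and on vesicle traffic. In bladder carcinoma, activating mutations of HRAS feed this cascade, and HRAS was first recognised as a human oncogene in DNA from the T24 line. Transcript levels report on the supply of these proteins and not on their activity, which depends on GTP loading and phosphorylation.

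Values are RPKM as deposited, reads scaled to exon length in kilobases and to the mapped reads of the library. Fold changes come from limma on log2(RPKM + 0.1) after TMM scaling, the scaling that the study's methods name, and a gene was called when its p, adjusted over all 15304 genes tested by the method of Benjamini and Hochberg, was under 0.05. Recovered reads on genes ranged from 32349827 to 42879427 per library. The median SD between the libraries of a group, over 6208 genes above 5 RPKM, was 0.032 in control and 0.037 in ISO on the log2 scale. The epithelial keratins KRT7, KRT8 and KRT18 were at 105.8 RPKM or more in every library. The urothelial regulators GATA3 (4.58 to 7.67 RPKM) and PPARG (3.79 to 7.73 RPKM) and the epithelial adhesion gene EPCAM (1.14 to 1.30 RPKM) were present in every library, whereas KRT5, KRT14 and KRT20 were listed at 0, the junction protein CDH1 was at most at 0.00486 RPKM and the uroplakin UPK2 was at most at 0.473 RPKM. The mesenchymal filament gene VIM was at 736 to 898 RPKM. The summed level of 16 epithelial and urothelial markers was 848 to 860 RPKM in control and 731 to 741 RPKM in ISO, of which 7 were under 0.1 RPKM in all libraries. Of the 9 tested, 4 were called lower and 1 higher, with log2 fold changes of -0.95 for PPARG and 0.49 for GATA3. The sum of 6 mesenchymal markers was 1664 to 1726 RPKM in control and 1428 to 1512 RPKM in ISO, and of the 5 tested VIM was called lower. Of 13 leukocyte, endothelial and fibroblast markers 8 were under 0.1 RPKM in all libraries, and their sum was 21.9 to 22.1 RPKM in control and 18.6 to 20.1 RPKM in ISO. Most of that sum was CDH5 (17.7 RPKM in each control library, 14.0 and 14.5 RPKM in the ISO libraries), which was called lower, while PDGFRB was called higher from a low level (0.369 and 0.394 RPKM, then 0.621 and 0.728 RPKM). These sums moved with the groups, and their part in the results was not tested.

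With ISO, 3 of the 7 genes fell and none rose. MAP2K1 (-18.4%) and RALA (-18.6%) fell most and HRAS (-11.6%) fell less, and NRAS, ARAF, BRAF and MAP2K2 did not pass the test. Over all genes tested, 5.94% were called lower and 3.89% were called higher, 9.83% in all. The share called lower was 9.47% with only protein-coding genes tested. It was 11.7% with only genes of a mean of at least 1 RPKM tested. Both fits called the same 3 of the 7 genes lower. Limma-voom on recovered reads called the same 3 genes lower, beside 10.8% of genes lower and 7.55% higher over its whole table (18.3% in all). The median log2 fold change of the 7 genes was -0.06, beside -0.01 over all genes tested. TMM scaling matters for genes with changes this small, since it moved the median of all genes by 0.06 on the log2 scale. In RPKM without TMM, MAP2K1 and RALA were called lower, HRAS was not and 0 of the 7 were called higher, beside 4.12% of all genes lower and 9.3% higher (13.4% in all), and the calls over all genes turned from 60.4% lower to 69.3% higher.

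**Figure D1:**
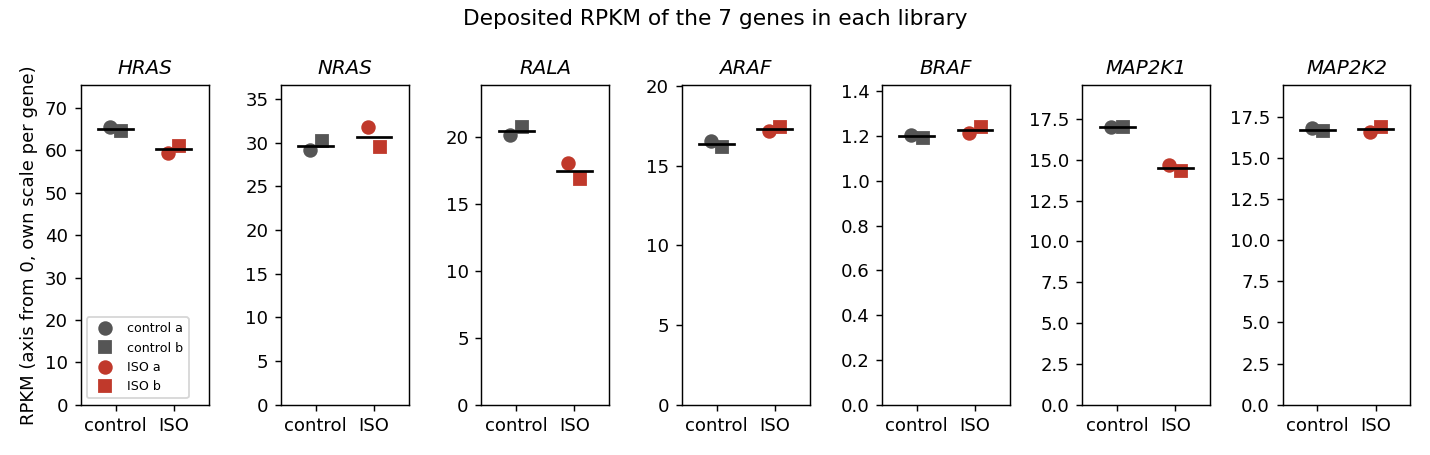
Deposited RPKM (vertical axis, from 0 and on its own scale for each gene) of the 7 genes in control libraries (grey) and ISO libraries (red); circles are libraries a, squares are libraries b and lines are group means, with 2 libraries per group. Both ISO libraries lie below both control libraries for HRAS, RALA and MAP2K1, and the groups overlap for NRAS and MAP2K2.

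Before the changes, the promoters of the 3 genes that fell are shown, to give the sequence at which their transcription starts and to see whether they hold letters in common. The promoters run from 250 bases before to 50 bases after the start site and come from RefSeq (build GRCh38.p14, the assembly behind hg38), which listed all 7 genes. For MAP2K1 and MAP2K2 it listed 2 promoters each, and the one nearest to the start of the gene in GENCODE was used, the other not being searched. They are written 5′ to 3′ along the gene, and the capitals mark GC boxes, the letters GGGCGG on either strand, to which SP1-family factors can bind. This MAP2K1 promoter lies at chr15:66386662-66386961 on the plus strand, the RALA promoter at chr7:39623322-39623621 on the plus strand and the HRAS promoter at chr11:535527-535826 on the minus strand. The HRAS window lies inside the HRAS gene of GENCODE (532242 to 537321), so that gene model begins further upstream. The same holds for the BRAF window, at 140924219 to 140924518 in a gene of 140719327 to 140924929.
MAP2K1: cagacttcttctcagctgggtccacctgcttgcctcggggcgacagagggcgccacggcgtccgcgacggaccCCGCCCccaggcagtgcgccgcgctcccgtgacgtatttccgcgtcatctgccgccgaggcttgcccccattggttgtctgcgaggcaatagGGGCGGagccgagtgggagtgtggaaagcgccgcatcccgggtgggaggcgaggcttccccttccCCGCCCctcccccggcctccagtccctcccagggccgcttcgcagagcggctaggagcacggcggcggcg
RALA: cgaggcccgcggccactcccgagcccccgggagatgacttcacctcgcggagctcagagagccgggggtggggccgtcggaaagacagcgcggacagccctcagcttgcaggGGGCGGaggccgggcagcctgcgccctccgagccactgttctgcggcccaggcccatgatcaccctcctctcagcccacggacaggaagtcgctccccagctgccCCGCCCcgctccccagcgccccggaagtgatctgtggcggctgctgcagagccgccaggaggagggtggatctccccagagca
HRAS: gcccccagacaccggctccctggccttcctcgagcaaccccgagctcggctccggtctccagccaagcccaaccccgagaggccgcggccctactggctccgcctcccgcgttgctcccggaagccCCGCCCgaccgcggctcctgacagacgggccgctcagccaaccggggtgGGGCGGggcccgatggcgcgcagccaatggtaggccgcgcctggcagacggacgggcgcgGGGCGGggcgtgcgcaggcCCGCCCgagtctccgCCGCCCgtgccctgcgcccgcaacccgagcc

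All 3 are rich in G and C, at 72.0% for MAP2K1, 72.3% for RALA and 78.0% for HRAS. The median over all 35116 listed promoters was 58.7%. MAP2K2, which did not pass the test, was above MAP2K1 and RALA at 73.7%. NRAS, ARAF and BRAF were at 57.3%, 60.3% and 63.0%. GC boxes numbered 3 in MAP2K1, 2 in RALA and 5 in HRAS. The letters do not set the falling genes apart, since NRAS held 3 and MAP2K2 held 2, while ARAF and BRAF held 0 and 44.95% of all promoters held at least 1. RALA and NRAS each held 1 ETS site (CCGGAAGT, in 4.14% of all promoters), the class of site bound by ETS factors that ERK can phosphorylate. MAP2K1 and ARAF each held 1 CRE core (TGACGT, in 7.98% of all promoters). The HRE core (ACGTG, in 21.4% of all promoters), which hypoxia-inducible factors can bind, was found in NRAS and ARAF and in none of the promoters of MAP2K1, RALA and HRAS. The NRAS matches lie in an E-box (CACGTG, in 7.26% of all promoters), which reads the same on both strands and so counts as 2 HRE cores. The AP-1 site (TGANTCA, in 7.71% of all promoters) was found in 0 of the 7 windows, and the CCAAT box (CCAAT, in 34.6% of all promoters) in HRAS, ARAF, BRAF and MAP2K1. These are letter matches, and no binding was measured.

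The RAS GTPases came first in the cascade, and HRAS and NRAS had the highest mean RPKM of the 7 genes in control. For NRAS this place depends on the length by which reads are divided. HRAS (ENSG00000174775, chromosome 11, 532242 to 537321 in hg38, minus strand) had the highest RPKM of the 7 genes in every library. It gave 65.6 and 64.6 RPKM in the control libraries and 59.4 and 61.1 RPKM in the ISO libraries. Both ISO libraries were lower than both control libraries. HRAS had a log2 fold change of -0.18 (standard error 0.036, 95% interval -0.27 to -0.09, limma adjusted p = 0.030), a change of -11.6%. The HRAS call was the least stable of the 3. Without TMM the log2 fold change was -0.11 (limma adjusted p = 0.065), and the call ended in all 4 fits that left out a single library (limma adjusted p from 0.093 to 0.15). A test on the recovered reads, limma-voom with TMM, called HRAS lower (adjusted p = 0.0044).

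NRAS (ENSG00000213281, chromosome 1, 114704469 to 114716771 in hg38, minus strand), the other RAS gene described here, differs from HRAS mostly in the lipid-modified tail that sets where in the cell the protein sits. It gave 29.2 and 30.2 RPKM in the control libraries and 31.8 and 29.5 RPKM in the ISO libraries. The highest and the second lowest of these values were both ISO libraries, so the groups overlapped. Its log2 fold change was -0.02 (95% interval -0.14 to 0.10, limma adjusted p = 0.86), and without TMM it was 0.05. The interval still holds changes from -9.33% to 7.47%.

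RALA (ENSG00000006451, chromosome 7, 39623565 to 39708120 in hg38, plus strand) encodes a RAL GTPase, the switch of the RALGDS branch. It gave 20.2 and 20.8 RPKM in the control libraries and 18.1 and 16.9 RPKM in the ISO libraries. Both ISO libraries were lower than both control libraries, and ISO b was the lowest. RALA had a log2 fold change of -0.30 (standard error 0.050, 95% interval -0.42 to -0.18, limma adjusted p = 0.017), a change of -18.6%. Without TMM it had a log2 fold change of -0.23 (limma adjusted p = 0.025). The call ended without control b or without ISO b (limma adjusted p = 0.079 and 0.067), and the log2 fold change without ISO b was -0.23. Limma-voom with TMM called RALA lower (adjusted p = 2.4e-04).

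The RAF kinases take the signal from RAS to MEK. ARAF (ENSG00000078061, chromosome X, 47561205 to 47571908 in hg38, plus strand) gave 16.5 and 16.2 RPKM in the control libraries and 17.2 and 17.5 RPKM in the ISO libraries. In the deposited RPKM both ISO libraries were higher, by an amount close to the shift that TMM removes. After TMM scaling ARAF was at 17.0 and 16.5 in control a and b and at 16.9 in each ISO library, and the groups overlapped. Its log2 fold change was 0.01 (95% interval -0.08 to 0.11, limma adjusted p = 0.85), or 0.08 without TMM (limma adjusted p = 0.18).

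BRAF (ENSG00000157764, chromosome 7, 140719327 to 140924929 in hg38, minus strand), the RAF kinase with the strongest activity toward MEK, had the lowest RPKM of the 7 genes. It gave 1.21 and 1.19 RPKM in the control libraries and 1.21 and 1.24 RPKM in the ISO libraries. All 4 values lay close together, with the ISO libraries slightly higher as deposited and slightly lower after TMM scaling. Its log2 fold change was -0.03 (95% interval -0.22 to 0.16, limma adjusted p = 0.85) and 0.03 without TMM. BRAF still had 986 to 1266 reads per library. The union of all BRAF exons in GENCODE v44, by which the reads were divided, is 23433 bases, 3.63 times the 6459 bases of the canonical transcript. Of these exon bases, 1239 (5.29%) also lie in exons of NDUFB2 on the opposite strand, a gene at 12.6 RPKM on average. The sources used here do not say that reads were counted by strand, so reads of BRAF and NDUFB2 over that stretch cannot be told apart. Since NDUFB2 had the higher RPKM, its reads could make up more of the BRAF count than that share of bases. The size of this part was not measured, and it bears on the ratio of ARAF to BRAF as well.

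The MEK kinases receive the signal from RAF and pass it to ERK. MAP2K1 (ENSG00000169032, chromosome 15, 66386837 to 66491656 in hg38, plus strand) was at 17.0 RPKM in each control library and at 14.7 and 14.3 RPKM in ISO a and b. The control libraries were nearly equal, and both ISO libraries were below them by more than the spread within either group. MAP2K1 had a log2 fold change of -0.29 (standard error 0.040, 95% interval -0.39 to -0.20, limma adjusted p = 0.0097), a change of -18.4%. By p it stood at place 336 of the 15304 genes tested, ahead of RALA at place 627 and HRAS at place 1037. The call ended without ISO b (a log2 fold change of -0.26, limma adjusted p = 0.055) and held in each of the other 3 fits that left out a library (limma adjusted p from 0.039 to 0.046). Limma-voom with TMM called MAP2K1 lower (adjusted p = 6.3e-05). The study itself names MAP2K1 among the downregulated genes of these same samples, so its direction here is not independent of that report. Of its exon bases, 20.5% are shared with a transcript on the opposite strand, ENSG00000261351, which was at 0.398 RPKM on average, and 3.34% with SNAPC5, at 3.98 RPKM on average.

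MAP2K2 (ENSG00000126934, chromosome 19, 4090321 to 4124122 in hg38, minus strand) gave 16.8 and 16.6 RPKM in the control libraries and 16.6 and 16.9 RPKM in the ISO libraries. The groups overlapped in RPKM. After TMM scaling both ISO libraries, at 16.4 each, lay below the control libraries at 17.3 and 16.9, and the log2 fold change was -0.06 (95% interval -0.15 to 0.03, limma adjusted p = 0.33). Without TMM it was 0.00. Groups without overlap were common. After TMM scaling 57.1% of all genes tested had none (29.8% with ISO lower and 27.3% with ISO higher), and 5 of the 7 genes were among them: HRAS, RALA, BRAF, MAP2K1 and MAP2K2. As deposited the share was 60.2% (18.3% with ISO lower and 41.9% with ISO higher), and the 5 genes were HRAS, RALA, ARAF, BRAF and MAP2K1.

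**Figure D2:**
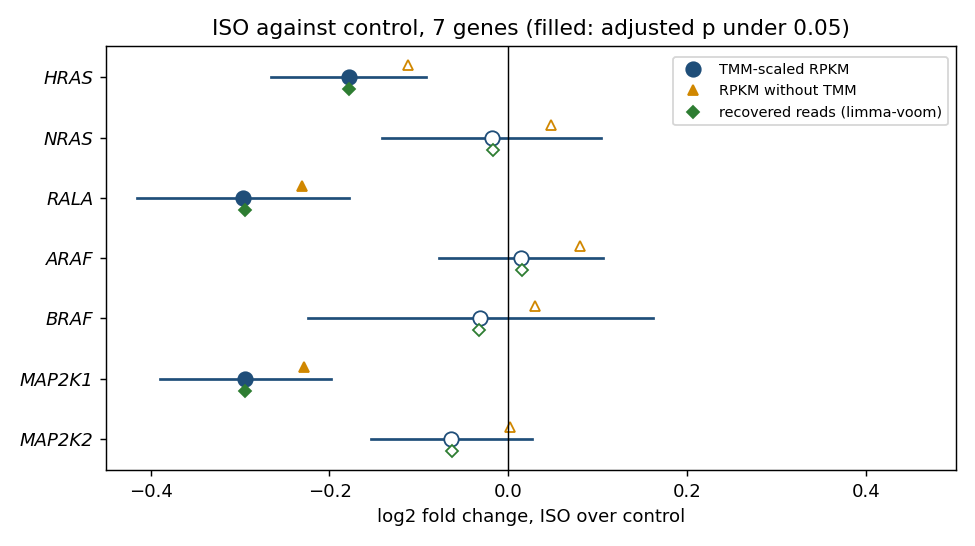
Log2 fold change of ISO over control (horizontal axis) for each gene: circles with 95% intervals from limma on TMM-scaled RPKM, triangles from RPKM without TMM and diamonds from limma-voom on recovered reads; filled symbols mark an adjusted p under 0.05. MAP2K1 and RALA are filled under all 3 settings, HRAS under the 2 with TMM, and the symbols of NRAS, BRAF and MAP2K2 lie on either side of 0 with and without TMM.

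In control cells the order of the mean RPKM was HRAS (65.1), NRAS (29.7), RALA (20.5), MAP2K1 (17.0), MAP2K2 (16.7), ARAF (16.4) and BRAF (1.20). The neighbours MAP2K1, MAP2K2 and ARAF had close means (SD 0.030, 0.17 and 0.23 RPKM, n = 2 each). In ISO cells MAP2K1 (14.5 RPKM) lay below MAP2K2 (16.7 RPKM), and RALA (17.5 RPKM) and ARAF (17.3 RPKM) came close, with ARAF between the RALA values of the 2 ISO libraries. This order depends on the length by which reads are divided. The exon union is 4.50 times the canonical transcript for MAP2K2, 2.54 times for MAP2K1 and 2.27 times for HRAS, whereas for NRAS both lengths are equal. If every read came from the canonical transcript, the control means would be 147.9 for HRAS, 75.2 for MAP2K2, 43.1 for MAP2K1, 29.7 for NRAS, 26.3 for RALA, 23.5 for ARAF and 4.35 for BRAF. HRAS was highest and BRAF lowest with either length, and MAP2K2 rose from the fifth place to the second.

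Ratios within a library do not depend on how libraries are scaled, and their change does not depend on length. Of the 3 ratios computed, MAP2K2 to MAP2K1 moved most. The control libraries had ratios of 0.992 and 0.975 and the ISO libraries of 1.13 and 1.18, a rise of 0.23 on the log2 scale (SD 0.017 in control and 0.043 in ISO, n = 2 each, exact permutation p = 0.33, two-sided). The ratio of HRAS to NRAS was 2.25 and 2.14 in control and 1.87 and 2.07 in ISO, a log2 difference of -0.16 (SD 0.050 and 0.11, n = 2 each, exact permutation p = 0.33, two-sided). ISO b lay closer to control b than to ISO a in this ratio, and the difference was -0.085 without ISO a and -0.23 without ISO b. The ratio of ARAF to BRAF was 13.7 and 13.6 in control and 14.2 and 14.1 in ISO, a log2 difference of 0.05 (SD 0.0089 and 0.0078, n = 2 each, exact permutation p = 0.33, two-sided). The groups did not overlap in any of the 3, and 2 libraries against 2 cannot give an exact p below 0.33, which is also the value after adjustment over the 3 ratios. The difference in response between MAP2K1 and MAP2K2 is therefore given by its values and was not established by this test.

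**Figure D3:**
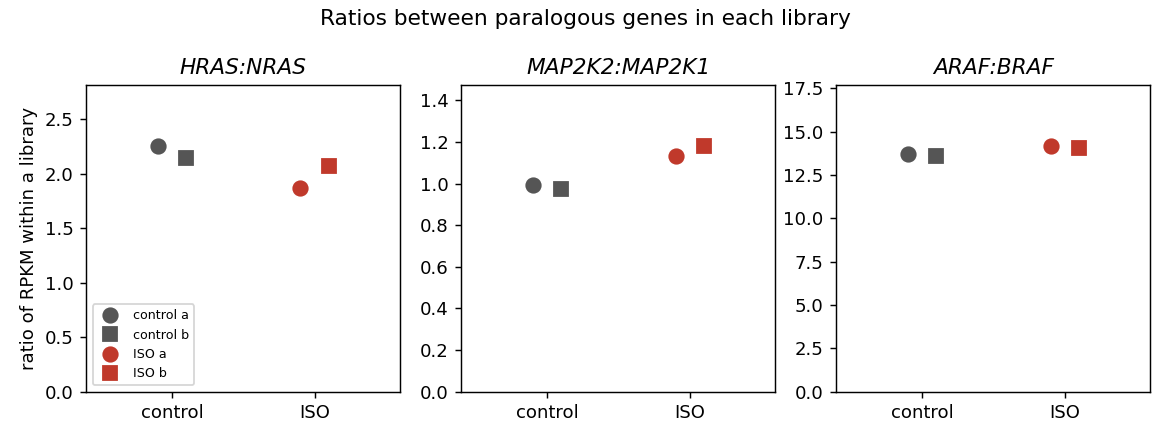
Ratio of RPKM between paralogous genes within each library (vertical axes from 0), with control libraries in grey, ISO libraries in red, circles for libraries a and squares for libraries b. The ratio of MAP2K2 to MAP2K1 lies near 1 in control (0.992 and 0.975) and at 1.13 and 1.18 in ISO.

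The rest of the pathway was described with 10 lists ordered by role, in which 139 genes were tested. Of them 21 fell, 0 rose and 118 did not pass the test, a share of 15.1% lower beside 5.94% over all genes. Their median log2 fold change was -0.06. With only protein-coding genes tested, 19.4% of the pathway genes were called lower, beside 9.47% of all genes tested. With only genes of a mean of at least 1 RPKM tested, the shares were 22.4% and 11.7%. In each of these fits 2 pathway genes were called higher. Limma-voom with TMM called 34 lower (24.5%, beside 10.8% of all genes) and 2 higher (beside 7.55% of all genes). RPKM without TMM gave 12 lower (8.63%, beside 4.12% of all genes) and 4 higher (beside 9.3% of all genes). With 1 of the 4 libraries left out, 3 to 7 were called lower and 0 higher, so the higher share of pathway genes depended on the libraries. It was 2.17% without ISO b (beside 1.95% of all genes), 2.88% without control a (beside 2.51%), 3.60% without ISO a (beside 1.93%) and 5.04% without control b (beside 2.33%). Without a filter on low values limma called 1 pathway gene lower, a share of 0.719% beside 0.665% of all genes. Without a trend in the prior variance it called 0 pathway genes, beside 1 gene over all genes tested.

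Around RAS itself, 0 of 15 tested adaptors and exchange factors were called in either direction. Nor were any of 15 other RAS-like GTPases or 14 genes of RAS lipid processing. Over all genes tested 9.83% were called and 5.94% were called lower, shares that stand beside the count of each list below. No call in lists this short therefore says little about them. With only protein-coding genes tested, 1 gene of each of these lists was called lower and 1 other RAS-like GTPase higher. With only genes of a mean of at least 1 RPKM tested, 2 other RAS-like GTPases were called lower. Limma-voom with TMM called 2 of the adaptors and exchange factors and 2 of the other RAS-like GTPases lower. It also called 1 gene of RAS lipid processing lower. RPKM without TMM gave 1 other RAS-like GTPase higher. Of 11 tested genes in the list of GTPase-activating proteins, which switch RAS off, 3 fell. They were RASA2, RASA3 and RASA1, the last named after its value was seen. The list also held IQGAP1 and LZTR1, which are not themselves active GTPase-activating proteins, and neither was called. IQGAP1 is in the list of scaffolds as well. RASA2 was at 3.04 and 3.11 RPKM in control a and b and at 2.58 RPKM in each ISO library (a log2 fold change of -0.31, limma adjusted p = 0.022). RASA3 gave 20.5 and 20.1 RPKM in the control libraries and 17.8 and 18.7 RPKM in the ISO libraries (a log2 fold change of -0.22, limma adjusted p = 0.024). In both genes the ISO libraries lay below the control libraries, and none of the 3 calls held when any 1 library was left out.

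On the RAL branch, 4 of 16 tested genes fell and 0 rose, with a median log2 fold change of -0.12. Of these, 3 encode exchange factors that carry the signal from RAS to RAL. RALGDS gave 5.84 and 5.17 RPKM in the control libraries and 4.06 and 4.58 RPKM in the ISO libraries (a log2 fold change of -0.41 with a standard error of 0.081, limma adjusted p = 0.029). RGL2 gave 15.2 and 14.1 RPKM in the control libraries and 12.0 and 12.5 RPKM in the ISO libraries (a log2 fold change of -0.32 with a standard error of 0.051, limma adjusted p = 0.015). Both ISO libraries were below both control libraries in each. RGL1 and RALB, the paralog of RALA, were named after their values were seen, and had log2 fold changes of -0.29 and -0.18 (limma adjusted p = 0.046 and 0.043). RALGDS and RGL2 held their calls only without control b, and RGL1 and RALB in none of the 4 fits with a library left out. The RAL GTPase-activating proteins RALGAPA1, RALGAPA2 and RALGAPB and the exocyst genes EXOC2 and EXOC8 did not pass the test.

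Next to the RAF kinases, 3 of 19 tested genes fell. CDC37, the cochaperone that brings kinases to HSP90, gave 56.2 and 54.4 RPKM in the control libraries and 49.3 and 51.3 RPKM in the ISO libraries (a log2 fold change of -0.20, limma adjusted p = 0.028). The 14-3-3 genes YWHAG and YWHAZ, whose products bind phosphorylated RAF, had log2 fold changes of -0.17 and -0.22 (limma adjusted p = 0.033 for each), YWHAZ having been named after its value was seen. Among 10 scaffolds and regulators of the module, PEA15, which holds ERK in the cytoplasm, and IQGAP3 had log2 fold changes of -0.23 and -0.25 (limma adjusted p = 0.026 and 0.021). Without 1 library, YWHAZ and PEA15 held their calls only without ISO a, and CDC37, YWHAG and IQGAP3 lost them in all 4 fits. Of 15 other MAP2K and MAP3K genes, not all of which serve only parallel kinase cascades, 0 were called, beside 9.83% of all genes tested. Limma-voom with TMM called 2 of them higher, MAP2K6 and MAP3K1. RPKM without TMM gave 2 higher, MAP3K1 and MAP3K8. In the main fit MAP3K1 and MAP3K8 had log2 fold changes of 0.21 and 0.25 (limma adjusted p = 0.088 and 0.083).

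Below MEK, 2 of 15 tested genes of ERK and its kinase substrates fell. MKNK2, a kinase that ERK activates and that phosphorylates the translation factor eIF4E, gave 50.2 and 46.4 RPKM in the control libraries and 37.8 and 39.0 RPKM in the ISO libraries (a log2 fold change of -0.40 with a standard error of 0.050, limma adjusted p = 0.0078). It held its call without control a and without control b and lost it when either ISO library was left out (the higher limma adjusted p = 0.056). MAPKAPK3 had a log2 fold change of -0.22 (limma adjusted p = 0.049) and lost its call without any 1 library.

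The list of transcriptional output of ERK, genes used as a readout of pathway activity, held the largest share of calls of the 10 lists. Of its 10 genes, 7 fell and 0 rose, with a median log2 fold change of -0.23. Without a filter on low values 1 of them was called, and without a trend in the prior variance 0 were. PHLDA1 gave 48.6 and 48.2 RPKM in the control libraries and 34.2 and 34.4 RPKM in the ISO libraries (a log2 fold change of -0.56 with a standard error of 0.035, limma adjusted p = 8.2e-04). CCND1, which encodes cyclin D1, gave 121.7 and 123.7 RPKM in the control libraries and 104.2 and 103.8 RPKM in the ISO libraries (a log2 fold change of -0.30 with a standard error of 0.036, limma adjusted p = 0.0067). In both genes the ISO libraries were well below the control libraries. The other genes called were SPRY2, DUSP6, DUSP4, ETV4 and ETV5, named after their values were seen, with log2 fold changes from -0.45 to -0.19. PHLDA1, CCND1 and SPRY2 held their calls in all 4 fits with 1 library left out, the only 3 of the 21 called pathway genes to do so, and the list had 3 to 4 genes called in those fits. The study names CCND1, and also MAP2K1, among the downregulated genes it describes from these samples, so their direction here is not independent of its choice.

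**Figure D4:**
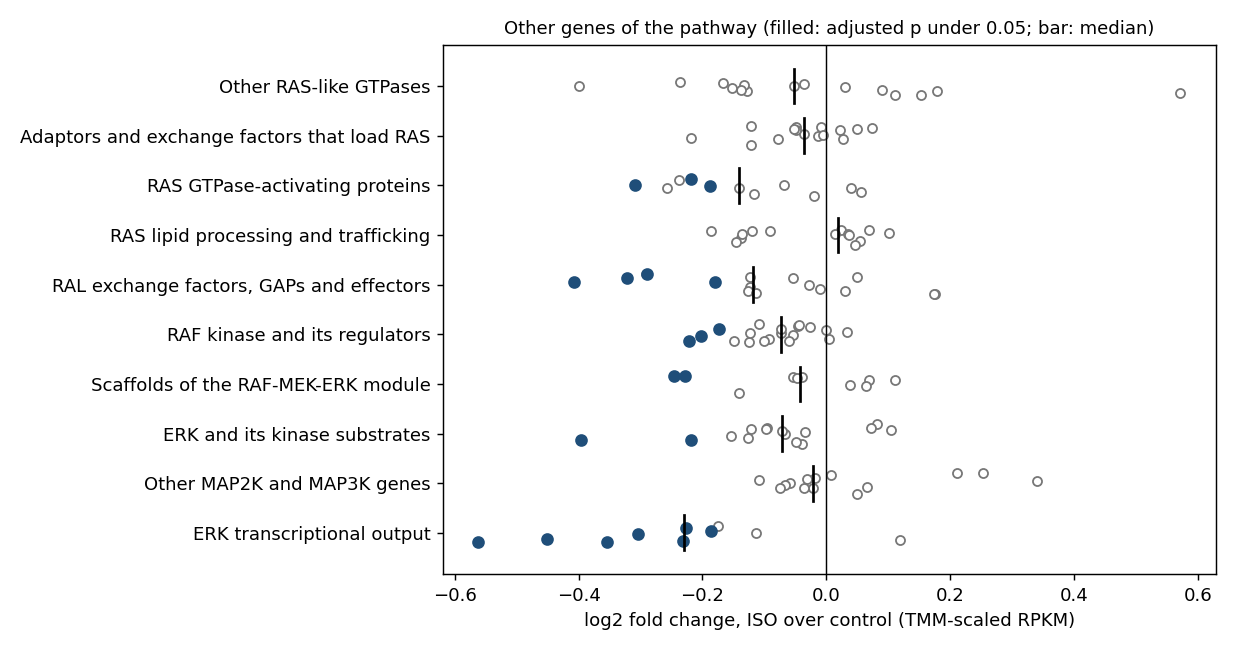
Log2 fold change of ISO over control on TMM-scaled RPKM (horizontal axis) for the tested genes of the 10 lists (rows); filled points have an adjusted p under 0.05 from limma, open points do not, and bars are list medians. All 21 filled points lie left of 0, with 7 of them among the 10 ERK output genes and 4 among the 16 RAL genes.

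The genes with the most similar profile were sought among 6135 protein-coding genes with a mean of at least 5 RPKM, by the Euclidean distance between log2 values centred over the 4 libraries. For MAP2K1 they were PSMD2, a subunit of the proteasome, and RNF145 (distances of 0.014 and 0.016), for RALA the growth factor gene PGF and ERRFI1, a feedback inhibitor of the epidermal growth factor receptor (0.010 and 0.019), and for HRAS TPRG1L and RIC8A (0.0035 and 0.0092). These 6 genes had log2 fold changes from -0.31 to -0.18. The nearest genes of NRAS were HIGD1A and CUL1, of ARAF PI4KB and SPATA2L, of BRAF CDH2 and ELF1, and of MAP2K2 PPP6R2 and FUT8, at distances of 0.0030 to 0.0091. With 4 libraries in 2 groups, such distances describe little more than an equal change between the groups.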

How the data were processed

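RNA from 2 control and 2 ISO libraries of T24 cells was sequenced. With Biomedical Genomics Workbench, the authors aligned paired reads to hg38, added up exon reads per gene and deposited RPKM values, and their methods name TMM for the comparison. Whether reads were counted by strand is not given in the sources used here. No counts were used as deposited. RPKM times the exon length in GENCODE release 44 gave whole reads (within 0.05) for 98.8% of values, and reads on genes per library were 32349827 to 42879427, so 3 reads on 1 kb equal 0.067 to 0.0885 RPKM. Of 47432 genes, 47416 matched GENCODE.

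RPKM were scaled by TMM without weights (trimming 30% of log ratios and 5% of levels, factors 0.971 to 1.03), and limma 3.58.1 (R 4.3.3), whose prior variance followed the mean level, was run on log2(RPKM + 0.1) for genes with a mean of at least 0.1 RPKM, so fold changes of low genes are understated. Alternatives covered scaling, pseudocount, filter, trend, limma-voom on recovered reads (genes averaging 10 or more reads), replicate letters as a block, and leaving out each library. The genes and lists were chosen with earlier results of these data known. Genes named from a list were at most 2 called per direction with the smallest p, and 2 nearest profiles were named per gene. Tables and plots used Python 3.11.15.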

Additional observations from a re-analysis of the deposited data

How the results depend on the processing

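Over all genes, 1505 were called (909 lower, 596 higher). Without a filter on low values 214 were called (160 lower, 54 higher), without a trend in the prior variance 1 (1 lower, 0 higher, beside 4125 genes at an unadjusted p under 0.05 with the trend), and with limma-voom 2756 (1620 lower, 1136 higher). Without TMM 1424 were called higher, and with a mean of at least 1 RPKM 900 were. Leaving out 1 library gave 406 to 695 called, 295 to 384 lower and 111 to 311 higher. HRAS lost its call without TMM (-0.11, limma adjusted p = 0.065), and without a filter or a trend HRAS (-0.18), RALA (-0.30) and MAP2K1 (-0.29) all lost theirs (limma adjusted p from 0.055 to 0.16), with no change in fold. The cause was not tested.

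Leaving out 1 library gave log2 fold changes of -0.20 to -0.16 for HRAS, -0.36 to -0.23 for RALA, -0.33 to -0.26 for MAP2K1, -0.089 to 0.049 for NRAS and -0.0087 to 0.037 for ARAF. RALA lost its call without control b or ISO b, and MAP2K1 without ISO b. Signs turned, with no call, without TMM for NRAS (0.047), BRAF (0.030) and MAP2K2 (0.0020), without ISO b for NRAS (0.049) and without control b for ARAF (-0.0087). In 125 further pairs of a result and an alternative, the direction and the side of the threshold, or a count within 1.5 times, were kept. Pairs for the ratios are among them, which have no threshold, and these kept their direction.

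With the replicate letters as a block, HRAS had a log2 fold change of -0.18 and lost its call (limma adjusted p = 0.051), and 1153 genes were called (720 lower, 433 higher). The block changed no other call of the 7 genes. Libraries of the same letter did not deviate together (r = -0.13 over 6208 genes). This compares a single difference within each group, so it cannot show whether libraries of the same letter were prepared together. With crossed letters, added after seeing the data, 1380 genes were called. With 2 libraries per group the spread is poorly known, and intervals cover the libraries at hand only.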
